A study of Mus musculus with 10 samples.

Results

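The CD28 family and the co-inhibitory receptors of T cells are described here in regulatory T cells (Tregs) through 9 genes taken by symbol: Ctla4, Icos, Cd28, Pdcd1, Btla, Tigit, Lag3, Havcr2 and Cd274. They are 9 of the 21556 genes in the count table, and all 9 are among the 13920 genes that passed a filter on low counts. RNA was measured by sequencing of bulk Tregs that had been sorted on red fluorescent protein, from mice injected with a lymphangiogenic melanoma cell line. There were 2 libraries of tumor Tregs from MHCIIdeltaProx-1 mice, 3 of tumor Tregs from MHCIIfl/fl mice, 2 of lymph node (LN) Tregs from MHCIIdeltaProx-1 mice and 3 of LN Tregs from MHCIIfl/fl mice. Both genotypes carry floxed MHC class II alleles. The MHCIIdeltaProx-1 mice (Prox1CrePos, MHCII-deleted mice below) also carry Cre under control of Prox1, a transcription factor of lymphatic endothelium, and the MHCIIfl/fl mice (Prox1CreNeg, control mice below) lack Cre. All mice were 10 weeks old. The series asks what happens to Tregs when tumor lymphatic vessels cannot present antigen on MHC class II.

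Prox1 drives the deletion in lymphatic endothelium and not in the sorted cells, so it cannot be checked in these libraries. The labels do not name the driver of the red fluorescent protein, the lymph node taken or the kind of Prox1 Cre line, and the protocol describes the excision of tumors alone. Nor do they say whether a library holds cells of 1 mouse or of several, so p-values measure the spread between these samples, which may in part be technical.

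T cells need a second signal beside the antigen receptor. CD28 gives it when it binds CD80 or CD86 on antigen-presenting cells, and CTLA4 binds the same ligands more tightly and inhibits. In Tregs, CTLA4 also strips these ligands from antigen-presenting cells and is a core part of suppression. ICOS is a co-stimulatory relative of CD28 with a ligand of its own, ICOSL, and is known as a marker of activated Tregs. PD-1 (Pdcd1) and BTLA are inhibitory relatives with cytoplasmic motifs that recruit phosphatases. PD-1 binds PD-L1, the product of Cd274, and BTLA binds HVEM, the product of Tnfrsf14. TIGIT binds CD155, LAG3 binds MHC class II, and TIM-3 (Havcr2) binds galectin-9 among other ligands. On conventional T cells these inhibitory receptors mark long stimulation, and on Tregs of tumors several of them are part of the activated state.

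Cd28, Ctla4 and Icos lie side by side on chromosome 1, in this order on the plus strand of GRCm38, at chr1:60716800-60773359, chr1:60887000-60915832 and chr1:60977927-61000320. Pdcd1 is on the minus strand of the same chromosome at chr1:94038305-94052553. Tigit (chr16:43648867-43664146, minus strand) and Btla (chr16:45224315-45257670, plus strand) share chromosome 16. Lag3 is at chr6:124904361-124911705 on the minus strand, Havcr2 at chr11:46454935-46481255 on the plus strand and Cd274 at chr19:29367455-29388095 on the plus strand. Counts are per gene over its exons. Cd274 overlaps an antisense gene, AC119228.1, and since the strand setting of the counting is not stated, reads of the pair cannot be told apart. Ctla4 and Icos each overlap another annotated gene on their own strand, Rpl18-ps1 and Gm37039, with which the counting could share reads.

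Promoter sequences were read from RefSeq (GRCm38.p6), from 250 bases before to 50 after each gene's start, and 6 of the 9 genes had an entry, not Cd28, Icos and Lag3. The start is that of RefSeq. For Ctla4 it is the start of the first protein coding transcript and lies well inside the span given above, which in GENCODE M21 opens with a longer transcript that is not protein coding. The 4 printed here belong to the 3 genes with the largest gains in tumor of control mice among those 6 (Ctla4, Havcr2 and Tigit) and to the gene that was lower there (Btla). Each is written 5′ to 3′ on the gene's own strand, and capitals mark matches, on either strand, to the motifs searched.
Ctla4 promoter (chr1:60908775-60909074, plus strand): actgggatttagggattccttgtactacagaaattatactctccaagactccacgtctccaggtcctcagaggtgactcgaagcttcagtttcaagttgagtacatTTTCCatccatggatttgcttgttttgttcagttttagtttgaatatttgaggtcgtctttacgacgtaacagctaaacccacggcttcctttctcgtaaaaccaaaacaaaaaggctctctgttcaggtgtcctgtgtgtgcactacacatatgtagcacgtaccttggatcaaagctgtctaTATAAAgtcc
Tigit promoter (chr16:43664135-43664434, minus strand): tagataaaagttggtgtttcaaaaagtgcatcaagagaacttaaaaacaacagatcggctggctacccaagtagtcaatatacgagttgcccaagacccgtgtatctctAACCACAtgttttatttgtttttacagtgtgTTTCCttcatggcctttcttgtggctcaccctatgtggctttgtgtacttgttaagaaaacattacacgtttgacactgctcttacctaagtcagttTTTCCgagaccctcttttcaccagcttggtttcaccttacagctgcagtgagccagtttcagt
Havcr2 promoter (chr11:46454681-46454980, plus strand): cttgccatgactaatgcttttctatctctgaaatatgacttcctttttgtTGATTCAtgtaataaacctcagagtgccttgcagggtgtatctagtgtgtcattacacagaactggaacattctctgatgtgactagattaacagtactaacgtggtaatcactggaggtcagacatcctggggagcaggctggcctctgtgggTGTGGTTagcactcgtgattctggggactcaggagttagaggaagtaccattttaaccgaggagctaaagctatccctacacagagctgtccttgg
Btla promoter (chr16:45224087-45224386, plus strand): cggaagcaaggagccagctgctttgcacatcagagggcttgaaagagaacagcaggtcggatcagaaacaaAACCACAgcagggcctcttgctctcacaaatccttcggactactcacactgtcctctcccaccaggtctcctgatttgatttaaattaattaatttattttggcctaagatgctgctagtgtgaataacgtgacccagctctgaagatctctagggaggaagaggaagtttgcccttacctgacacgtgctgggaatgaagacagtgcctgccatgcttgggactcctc

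The motifs were the NFAT core GGAAA, AP-1 TGANTCA, NF-kB GGGA followed by any 4 letters and CC, forkhead GTAAACA, Runx TGTGGTT and the TATA box TATAAA. The Ctla4 window holds 1 NFAT core and 1 TATA box, which begins 40 bases after the annotated start. The Tigit window holds 2 NFAT cores and 1 Runx match, the Havcr2 window 1 AP-1 and 1 Runx match, and the Btla window 1 Runx match. No marked match overlaps another. Of 32544 RefSeq promoters of this length, 61.5% hold the NFAT core, 7.79% AP-1, 20.8% NF-kB, 3.66% forkhead, 5.29% Runx and 13.6% the TATA box. Pdcd1 and Cd274 hold 2 NFAT cores each. None of the 6 windows has the letters of the NF-kB or forkhead motif, and 3 of the 6 (Tigit, Havcr2 and Btla) have those of Runx, among them the gene that was lower in tumor. These matches are letters in a window and were not set against any binding data.

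The libraries held 28539329 to 35736175 counts and 12825 to 14703 detected genes each. Levels are given as CPM (counts scaled to the TMM-normalised size of the library). Foxp3, the Treg lineage factor, was present in every library, at a mean of 345 ± 5.07 CPM in tumor of MHCII-deleted mice (SD, n = 2), 738 ± 85.9 in tumor of control mice (SD, n = 3), 617 ± 52.4 in LN of MHCII-deleted mice (SD, n = 2) and 687 ± 53.4 in LN of control mice (SD, n = 3). RNA of other cells was present in tumor. The 15 melanoma markers summed to between 19889.8 and 23972 CPM in tumor of MHCII-deleted mice and between 4963 and 9672 CPM in tumor of control mice, against 28.1 to 35.1 and 16.5 to 26.9 CPM in LN of MHCII-deleted and control mice. A list of 24 pan-T cell genes summed to between 7084 and 8331 CPM in tumor of MHCII-deleted mice, and to between 16275 and 18130 CPM in all other libraries. Of the 24, Ptprcap is listed at 0 in every library. Markers of CD8 T and NK cells summed to between 64.7 and 78.9 CPM in tumor of MHCII-deleted mice, 102 and 119 CPM in tumor of control mice, and 53.3 and 68.9 CPM in LN. Myeloid markers summed to between 32.5 and 67.3 CPM in all libraries, with Csf3r at 0 throughout, and markers of B and plasma cells, mostly Xbp1, to between 253 and 323 CPM. Markers of stroma and blood endothelium summed to between 385 and 867 CPM in tumor of MHCII-deleted mice and between 586 and 4326 CPM in tumor of control mice, against 183 to 221 CPM in LN. In bulk samples, fewer cells of a type and less RNA per cell cannot be told apart.

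Between tumor and LN of control mice, the genes did not move as a block. Ctla4 and Havcr2 were the most raised in tumor, with 6.19-fold and 7.93-fold higher fitted levels, and Tigit, Pdcd1, Cd274 and Icos were also higher. Btla fell, to a level 4.50-fold lower. Cd28 and Lag3 did not pass the test. In all, 6 of the 9 genes rose and 1 fell, where 22.8% of all genes tested were called higher and 16.1% lower.

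Ctla4, which takes CD80 and CD86 away from CD28, stood at 3275, 3011 and 2915 CPM in tumor of control mice, against 489.7, 494 and 502 CPM in their LN. The log2 fold change was 2.63 ± 0.10 (SE; edgeR adjusted p = 1.83e-07), and the 3 values of each tissue lay far apart from those of the other. Icos stood at 2261, 1942 and 2094 CPM in tumor and 989, 1002 and 901 CPM in LN, a log2 fold change of 1.12 ± 0.13 (SE; edgeR adjusted p = 0.000143). Cd28 stood at 623, 597 and 542 CPM in tumor and 539.8, 528 and 559 CPM in LN, and here the 2 tissues overlapped. Its log2 fold change was 0.12 ± 0.08 (SE; edgeR adjusted p = 0.277). Of the 3 neighbours on chromosome 1, the inhibitory receptor thus differed most between the tissues and the founding co-stimulatory receptor least.

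Pdcd1, the PD-1 receptor, stood at 1113, 1538 and 1319.5 CPM in tumor of control mice and 406, 492 and 396 CPM in LN, and a log2 fold change of 1.62 ± 0.14 (SE; edgeR adjusted p = 1.59e-05). Its ligand gene Cd274 had 265, 159 and 176 CPM in tumor and 100.5, 83.7 and 74.1 CPM in LN, a log2 fold change of 1.22 ± 0.25 (SE; edgeR adjusted p = 0.00396). Tumor and LN did not overlap for either gene, but the share of all genes without overlap was not computed. For Cd274, library 1 of the tumor group was well above the other 2. With an index of GC-rich transcripts as a covariate the Cd274 value was 0.83 and did not pass (edgeR adjusted p = 0.226). Btla, the receptor for HVEM, ran the other way, with 47.0, 32.6 and 42.6 CPM in tumor and 191, 188 and 171 CPM in LN. Its log2 fold change was -2.17 ± 0.14 (SE; edgeR adjusted p = 2.35e-06), and no other of the 9 genes fell.

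Tigit, the receptor for CD155, had 270.4, 315 and 275 CPM in tumor of control mice and 93.2, 96.6 and 86.8 CPM in LN, and a log2 fold change of 1.64 ± 0.13 (SE; edgeR adjusted p = 9.94e-06). Havcr2, which encodes TIM-3, had 112, 114 and 82.1 CPM in tumor and 11.9, 12.1 and 14.9 CPM in LN. That made it the least abundant of the 9 genes in LN, also per exon length, and its log2 fold change was 2.99 ± 0.28 (SE; edgeR adjusted p = 3.32e-05). Lag3 was low in both tissues, with 42.6, 35.2 and 44.1 CPM in tumor and 32.2, 35.5 and 45.6 CPM in LN. The tissues overlapped for Lag3, and its log2 fold change was 0.11 ± 0.21 (SE; edgeR adjusted p = 0.722). Scaled to pan-T cell genes (counts divided by the sum over these genes in the library), the same 6 genes were called higher, where 23.8% of all genes were, and Btla lower, where 11.0% were. That scaling moved the median of all genes by little, to 0.16 against 0.08.

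**Figure D1:**
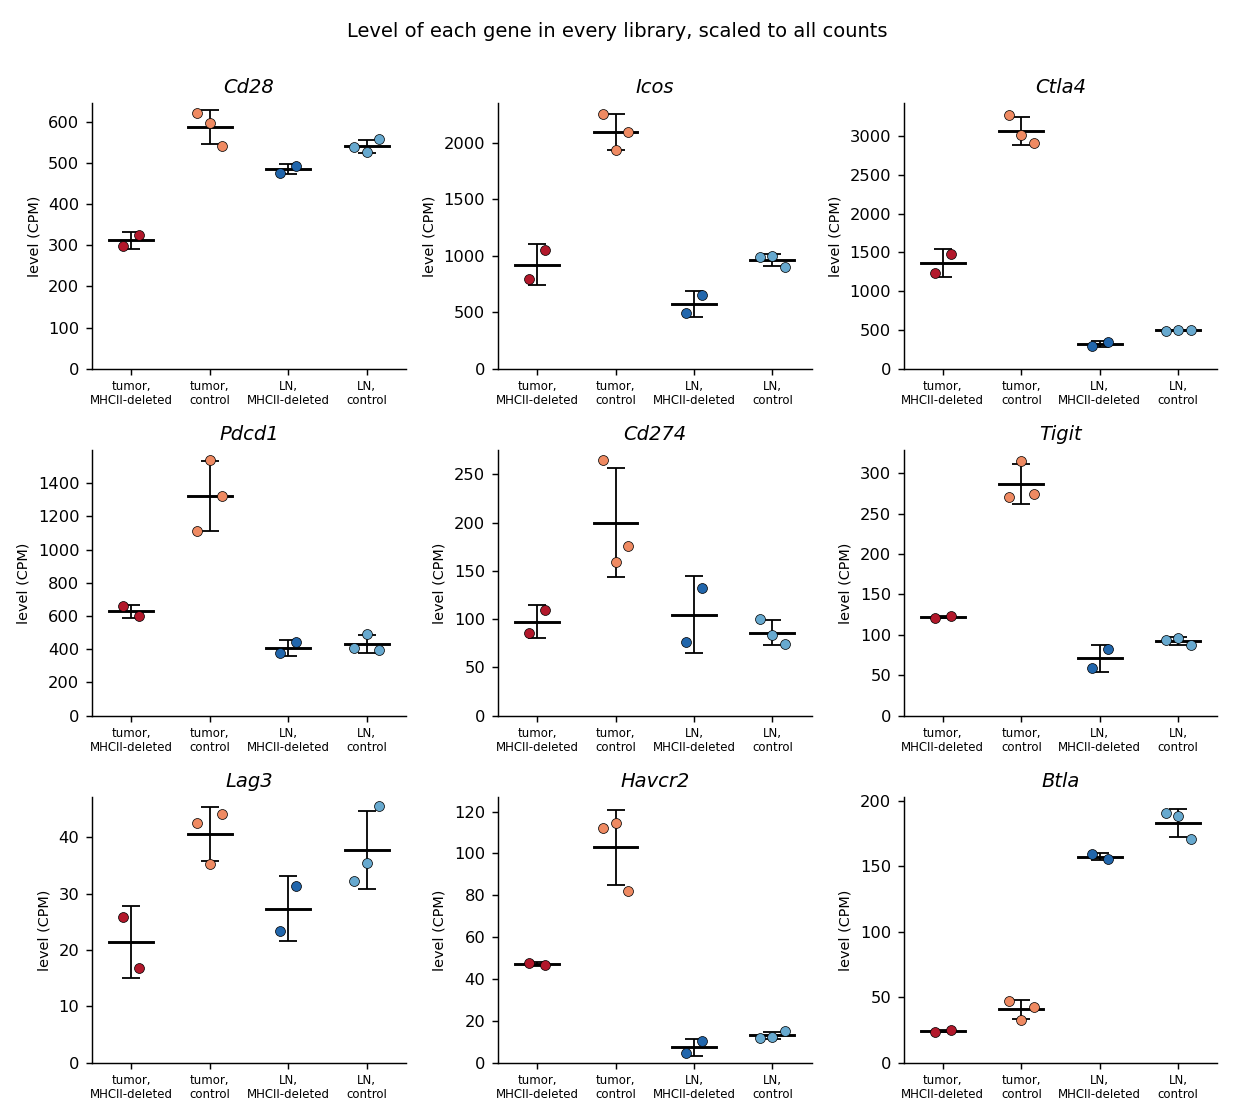
Level of each of the 9 genes in every library, in CPM scaled to all counts, with 1 panel per gene; points are libraries, thick lines are group means and bars are SD. Ctla4 lies between 2915 and 3275 CPM in tumor of control mice, Btla is highest in LN, and tumor libraries of MHCII-deleted mice lie below those of control mice for all 9 genes, which does not hold with pan-T cell scaling, where those of Cd28 and Btla lie above.

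In MHCII-deleted mice, Ctla4, Havcr2, Tigit, Icos and Pdcd1 were again higher in tumor than in LN and Btla lower, while Cd28 was lower in tumor. Per all counts, 5 genes rose and 2 fell, where 24.3% of all genes were called higher and 20.1% lower. The tumor libraries of these mice carried the most melanoma RNA of the study, 19889.8 and 23972 CPM of its markers, and the fewest pan-T cell counts, 7084 and 8331 CPM. Scaled to pan-T cell genes, 8 of the 9 genes were higher in tumor, where 64.3% of all genes were higher, and Btla was lower, where 2.33% were.

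Ctla4 stood at 1229.5 and 1485 CPM in tumor of MHCII-deleted mice and 293 and 344 CPM in their LN, a log2 fold change of 2.09 ± 0.12 (SE; edgeR adjusted p = 2.05e-06). Icos stood at 797 and 1048 CPM in tumor and 492 and 655 CPM in LN, with 0.69 ± 0.16 (log2 fold change ± SE; edgeR adjusted p = 0.0065). Cd28 had 298 and 327 CPM in tumor and 477 and 494 CPM in LN, with -0.64 ± 0.10 (log2 fold change ± SE; edgeR adjusted p = 0.000627), which turned to 0.56 ± 0.10 (log2 fold change ± SE; edgeR adjusted p = 0.000903) with pan-T cell scaling. None of the 3 overlapped between the tissues, but this says little at 2 libraries against 2, and the share of all genes without overlap was not computed. The direction of Cd28 depended on the scale. Counted per 1000 pan-T cell counts, Cd28 stood at 42.0 and 39.2 in tumor of MHCII-deleted mice and 26.9 and 28.3 in LN.

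Pdcd1 had 657 and 601 CPM in tumor of MHCII-deleted mice and 375 and 443 CPM in LN, a log2 fold change of 0.62 ± 0.16 (SE; edgeR adjusted p = 0.0117). Cd274 had 85.3 and 109.6 CPM in tumor and 76.1 and 133 CPM in LN, so that the tissues overlapped, and its log2 fold change of -0.10 ± 0.30 (SE; edgeR adjusted p = 0.81) turned to 1.09 ± 0.30 (SE; edgeR adjusted p = 0.00832) with pan-T cell scaling. Btla fell, with 23.6 and 24.6 CPM in tumor and 159 and 156 CPM in LN, by 2.71 ± 0.17 (SE; edgeR adjusted p = 3.09e-06) on the log2 scale. Its 2 tumor libraries were lower than every other library of the study. Tigit had 121 and 123 CPM in tumor and 59.2 and 82.3 CPM in LN, with 0.79 ± 0.16 (log2 fold change ± SE; edgeR adjusted p = 0.00249). Havcr2 had 47.6 and 46.4 CPM in tumor and 4.40 and 10.3 CPM in LN, with 2.68 ± 0.34 (log2 fold change ± SE; edgeR adjusted p = 0.00019). For both receptors every tumor library of these mice was above every LN library, which again says little at 2 libraries against 2. Lag3 overlapped between the tissues at 25.9 and 16.8 CPM in tumor and 23.3 and 31.4 CPM in LN, and its -0.36 ± 0.26 (log2 fold change ± SE; edgeR adjusted p = 0.283) became 0.87 ± 0.30 (log2 fold change ± SE; edgeR adjusted p = 0.0277) with pan-T cell scaling. Without LN library 1 of these mice, the log2 fold changes of Icos and Pdcd1 were 0.49 and 0.51 and no longer passed (edgeR adjusted p = 0.0616 and 0.0951), and Pdcd1 was also lost without tumor library 1 (edgeR adjusted p = 0.0536).

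**Figure D2:**
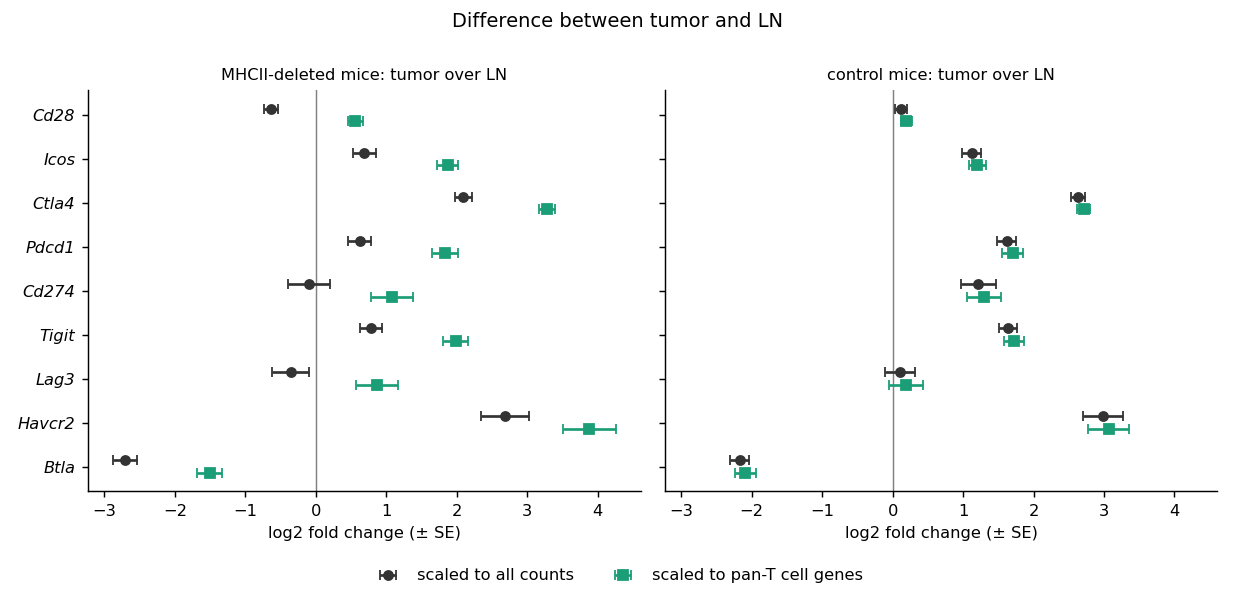
Log2 fold change of tumor over LN for each gene in MHCII-deleted mice (left) and control mice (right), with bars of 1 SE. Circles are scaled to all counts and squares to pan-T cell genes; Btla is below 0 in both genotypes on both scales, and Cd28, Lag3 and Cd274 change side in MHCII-deleted mice when the scale changes.

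With pan-T cell scaling the median log2 fold change of all genes between tumor and LN of MHCII-deleted mice was 1.27, against 0.07 per all counts, and 96.5% of the calls were higher, against 54.8%. Relative to that median, the gains of Ctla4 (3.28), Havcr2 (3.88), Tigit (1.99), Icos (1.87) and Pdcd1 (1.83) were above it on this scale, and those of Cd28 (0.56), Lag3 (0.87) and Cd274 (1.09) below it.

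The balance of the receptors can be read within a library, where it does not depend on how libraries are scaled. Ctla4 counts exceeded Cd28 counts in all 5 tumor libraries and in none of the 5 LN libraries. The ratio of Ctla4 to Cd28 counts was 4.13 and 4.55 in tumor of MHCII-deleted mice and 5.25, 5.04 and 5.38 in tumor of control mice. In LN it was 0.615 and 0.695 in MHCII-deleted mice and 0.907, 0.937 and 0.898 in control mice. The 4 groups did not overlap, with tumor far above LN and, within each tissue, MHCII-deleted below control mice. A ratio can differ through either gene. In tumor with pan-T cell scaling, MHCII-deleted over control mice gave -0.07 for Ctla4 and 0.20 for Cd28 on the log2 scale, neither called. Tumor minus LN differed by 2.60 on the log2 scale (exact permutation test, two-sided, p = 0.00794, the smallest that 5 against 5 allows). Within the genotypes the difference was 2.73 in MHCII-deleted mice (exact permutation p = 0.333) and 2.51 in control mice (exact permutation p = 0.1), again the smallest p that these numbers of libraries allow. MHCII-deleted minus control mice differed by -0.27 in tumor and -0.48 in LN (exact permutation p = 0.2 for each, the smallest that 2 against 3 allows), so that no test of these sizes could pass 0.05. These were 5 tests, and with Benjamini-Hochberg adjustment over them p was 0.0397 for tumor minus LN, 0.333 within MHCII-deleted mice and 0.25 for each of the others. The test of tumor minus LN took libraries as unpaired. Outside these 5, permuting tissue within pairs of equal library number gave p = 0.0625 (exact permutation test), the smallest possible, so that it could not pass 0.05.

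The other receptors were set against Cd28 in the same way, as a description. Icos counts were 2.68 and 3.21 times those of Cd28 in tumor of MHCII-deleted mice and 3.63, 3.25 and 3.86 times in tumor of control mice. In LN they were 1.03 and 1.33 times in MHCII-deleted and 1.83, 1.90 and 1.61 times in control mice. These 4 groups did not overlap either, in the same order as for Ctla4. How many of all genes separate likewise when set against Cd28 was not computed. Havcr2 gained most on Cd28 in tumor, by 3.44 on the log2 scale over LN in MHCII-deleted mice and 2.86 in control mice. Pdcd1 gained 1.27 and 1.497 and Tigit 1.45 and 1.52, in MHCII-deleted and control mice. Btla ran the other way, with -2.07 in MHCII-deleted and -2.30 in control mice. Lag3 kept nearly the same ratio to Cd28 in tumor and LN of control mice, with a mean of 0.0695 in both, and overlapped between tissues in both genotypes.

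Levels of different genes can be compared only roughly once divided by exon length (CPM per kb). The length used is that of all annotated exons of a gene together, which may differ from that of the transcripts present. Any loss of GC-rich transcripts is not removed by it. Of the summed CPM per kb of the 9 genes, Ctla4 held a mean of 40.9% in tumor of MHCII-deleted mice and 41.8% in tumor of control mice, against 18.0% and 21.1% in LN of MHCII-deleted and control mice. The share of Cd28 was 3.59% and 3.05% in tumor, against 10.5% and 8.81% in LN, in the same order of genotypes, and that of Btla 0.500% and 0.382% in tumor, against 6.15% and 5.36% in LN. Tigit held 9.37% and 9.91% in tumor, against 10.0% and 9.97% in LN, so its share differed little between the tissues. In tumor the order by CPM per kb was Ctla4, Pdcd1, Icos, Tigit, Cd28, Cd274, Havcr2, Lag3 and Btla in both genotypes, and only Pdcd1 and Icos of control mice overlapped as neighbours. In LN of MHCII-deleted mice it was Pdcd1, Icos, Ctla4, Cd28, Tigit, Btla, Cd274, Lag3 and Havcr2, with overlap between Icos and Ctla4 and between Cd28 and Tigit. In LN of control mice it was Icos, Pdcd1, Ctla4, Tigit, Cd28, Btla, Cd274, Lag3 and Havcr2, with overlap between Pdcd1 and Ctla4 and between Cd274 and Lag3. Btla was thus the lowest of the 9 in tumor and above 3 others in LN.

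**Figure D3:**
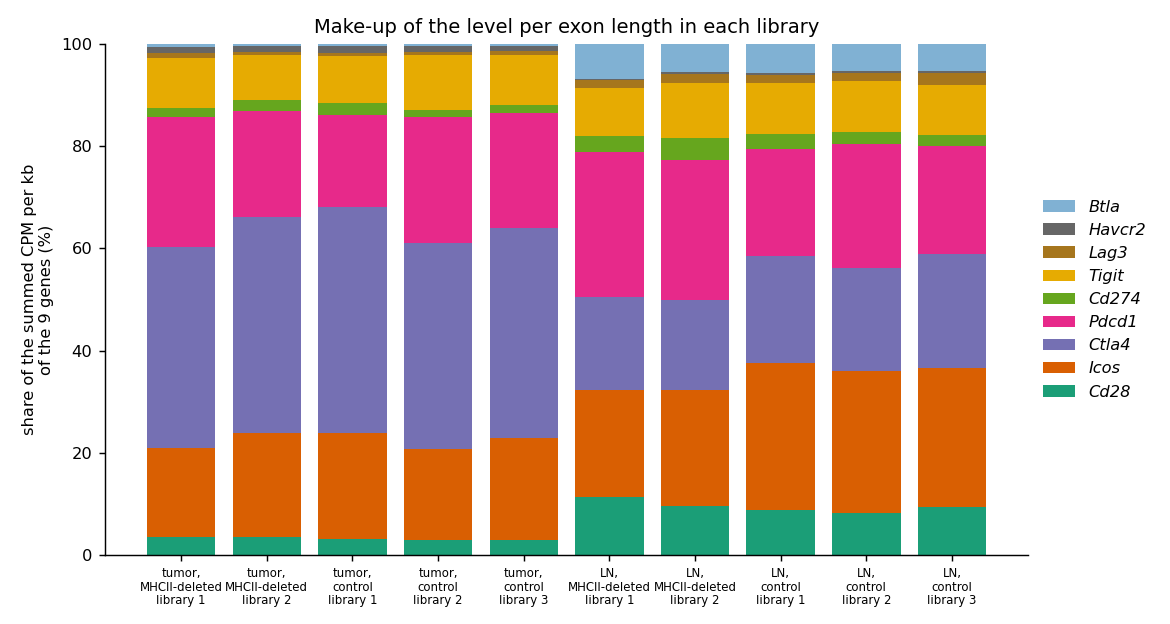
Share of each gene in the summed CPM per kb of the 9 genes, in percent, with 1 bar per library. Ctla4 takes a mean of 40.9% in tumor of MHCII-deleted mice and 41.8% in tumor of control mice, and the band of Btla at the top is wider in LN than in tumor.

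In LN Tregs, the deletion of MHC class II on lymphatic endothelium came with lower Ctla4 and Icos. These were 2 of the 5 genes called lower in LN among all genes tested (0.0359%), while 149 were called higher (1.07%). The other 7 genes did not pass. Cd28, Lag3, Tigit, Havcr2 and Btla had both MHCII-deleted libraries below all 3 control libraries, as did Ctla4 and Icos, where 11.9% of all genes showed this. Pdcd1 and Cd274 overlapped between the genotypes.

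Ctla4 stood at 293 and 344 CPM in LN of MHCII-deleted mice, against 489.7, 494 and 502 CPM in LN of control mice. It was 1.55-fold lower, and its log2 fold change was -0.64 ± 0.11 (SE; edgeR adjusted p = 0.0436). Icos, at 492 and 655 CPM in LN of MHCII-deleted mice and 989, 1002 and 901 CPM in LN of control mice, had -0.75 ± 0.15 (log2 fold change ± SE; edgeR adjusted p = 0.0497). The pan-T cell sum did not separate these groups (17475 to 17770 CPM in LN of MHCII-deleted mice, 17232 to 18130 CPM in LN of control mice), and both calls held with pan-T cell scaling, where 0.0503% of all genes were called lower (log2 fold changes of -0.64 and -0.75, edgeR adjusted p = 0.0221 and 0.0252). Both were lost without any of the 5 LN libraries in turn, with log2 fold changes of -0.76 to -0.53 for Ctla4 (edgeR adjusted p = 0.122 to 0.268) and -0.97 to -0.56 for Icos (edgeR adjusted p = 0.116 to 0.317). They were also lost without tumor library 2 (edgeR adjusted p = 0.0512 and 0.0563) or 3 (edgeR adjusted p = 0.071 and 0.0836) of control mice, which enter through the shared estimate of the spread.

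This index, the log2 level of genes with a window of 100 bases over 75% GC relative to the other genes separated the genotypes in LN, at 0.0489 and 0.0959 in MHCII-deleted and -0.225 to -0.153 in control mice. With this index as a covariate the log2 fold changes were -0.88 for Ctla4 and -1.16 for Icos, and neither passed (edgeR adjusted p = 0.893 for each). Its part in the result cannot be told apart from the genotype. Size factors by the RLE method gave -0.68 and -0.79 (edgeR adjusted p = 0.0523 and 0.0576), and with a spread estimated without robustness Icos did not pass (edgeR adjusted p = 0.0509).

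Among the genes that did not pass, Havcr2 had 4.40 and 10.3 CPM in LN of MHCII-deleted mice and 11.9, 12.1 and 14.9 CPM in LN of control mice, a log2 fold change of -0.82 ± 0.31 (SE; edgeR adjusted p = 0.341). Tigit had 59.2 and 82.3 CPM and 93.2, 96.6 and 86.8 CPM in LN of MHCII-deleted and control mice, with -0.38 ± 0.14 (log2 fold change ± SE; edgeR adjusted p = 0.336). Lag3 had -0.46, Btla -0.22, Cd28 -0.16, Pdcd1 -0.08 and Cd274 0.28 on the log2 scale. The size of Havcr2 exceeded that of Ctla4, but its LN counts were the lowest of the 9 genes and its SE was 0.31, against 0.11 for Ctla4.

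In tumor, all 9 genes were lower in MHCII-deleted than in control mice when libraries were scaled to all counts, and none of the 9 was called when they were scaled to pan-T cell genes. On the scale of all counts, 13.7% of all genes were called lower and 15.0% higher, the lower ones including 22 of the 23 pan-T cell genes tested. The same libraries held 19889.8 and 23972 CPM of melanoma markers in MHCII-deleted mice, against 4963 to 9672 CPM in control mice. Lymphatic endothelial markers summed to 255 and 512 CPM in tumor of MHCII-deleted mice, against 55.6 to 72.7 CPM in the control libraries, where Reln was at 0. Nrp2 alone gave 183 to 218 CPM of these sums in MHCII-deleted and 27.8 to 52.6 CPM in control mice. Prox1 overlapped between the genotypes, with means of 4.51 and 4.23 CPM. Pdpn stood at 10.1 and 14.1 CPM in MHCII-deleted mice, against 4.06 to 6.97 CPM. Lyve1, Ccl21a, Flt4, Mmrn1 and Itga9 varied widely between the 2 MHCII-deleted libraries, from 2.72 to 83.3 CPM for Lyve1. The part of this other RNA in the values of the 9 genes was not tested.

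Tigit fell, at 121 and 123 CPM in tumor of MHCII-deleted mice and 270.4, 315 and 275 CPM in that of control mice, and its log2 fold change was -1.23 ± 0.15 (SE; edgeR adjusted p = 0.000426). Icos had -1.19 ± 0.15 (log2 fold change ± SE; edgeR adjusted p = 0.000629) and Ctla4 -1.18 ± 0.11 (log2 fold change ± SE; edgeR adjusted p = 0.000195). Havcr2 had -1.13 ± 0.30 (log2 fold change ± SE; edgeR adjusted p = 0.0202), Pdcd1 -1.07 ± 0.15 (log2 fold change ± SE; edgeR adjusted p = 0.00108) and Cd274 -1.04 ± 0.28 (log2 fold change ± SE; edgeR adjusted p = 0.0225). Lag3, Cd28 and Btla fell least, by 0.93, 0.91 and 0.76 on the log2 scale (edgeR adjusted p = 0.0184, 0.000247 and 0.00531). The 9 log2 fold changes thus lay within -1.23 to -0.76, a narrower range than between the tissues, and no gene overlapped between the genotypes, where 24.0% of all genes were lower without overlap. The median log2 fold change of the 23 pan-T cell genes tested was -1.07, and so was that of the 9 genes.

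Per 1000 counts of pan-T cell genes, the 9 genes summed to 464 and 454 in tumor of MHCII-deleted mice, and to 472, 464 and 460.3 in tumor of control mice. Ctla4 stood at 174 and 178 in tumor of MHCII-deleted mice and 193, 180.3 and 179 in tumor of control mice on this scale, a log2 fold change of -0.07 ± 0.09 (SE; edgeR adjusted p = 0.548). Icos stood at 113 and 126 in MHCII-deleted and 133, 116 and 129 in control mice, with -0.08 ± 0.13 (log2 fold change ± SE; edgeR adjusted p = 0.602). Cd28, at 42.0 and 39.2 in MHCII-deleted and 36.8, 35.8 and 33.3 in control mice, had 0.20 ± 0.09 (log2 fold change ± SE; edgeR adjusted p = 0.0809), and Btla, at 3.33 and 2.95 in MHCII-deleted and 2.77, 1.95 and 2.62 in control mice, had 0.36 ± 0.16 (log2 fold change ± SE; edgeR adjusted p = 0.068). Cd28 and Btla were the 2 genes whose MHCII-deleted libraries both lay above the control libraries on this scale, as for 76.3% of all genes, and those of Ctla4 lay below, as for 1.59%. The other genes, like Icos, overlapped, with log2 fold changes of -0.11 for Tigit, -0.01 for Havcr2, 0.05 for Pdcd1, 0.07 for Cd274 and 0.21 for Lag3. On this scale the median of all genes was 1.22, against 0.10 per all counts, and 99.5% of the calls were higher, against 52.3%. In all, 67.2% of the genes tested were called higher and 0.330% lower.

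**Figure D4:**
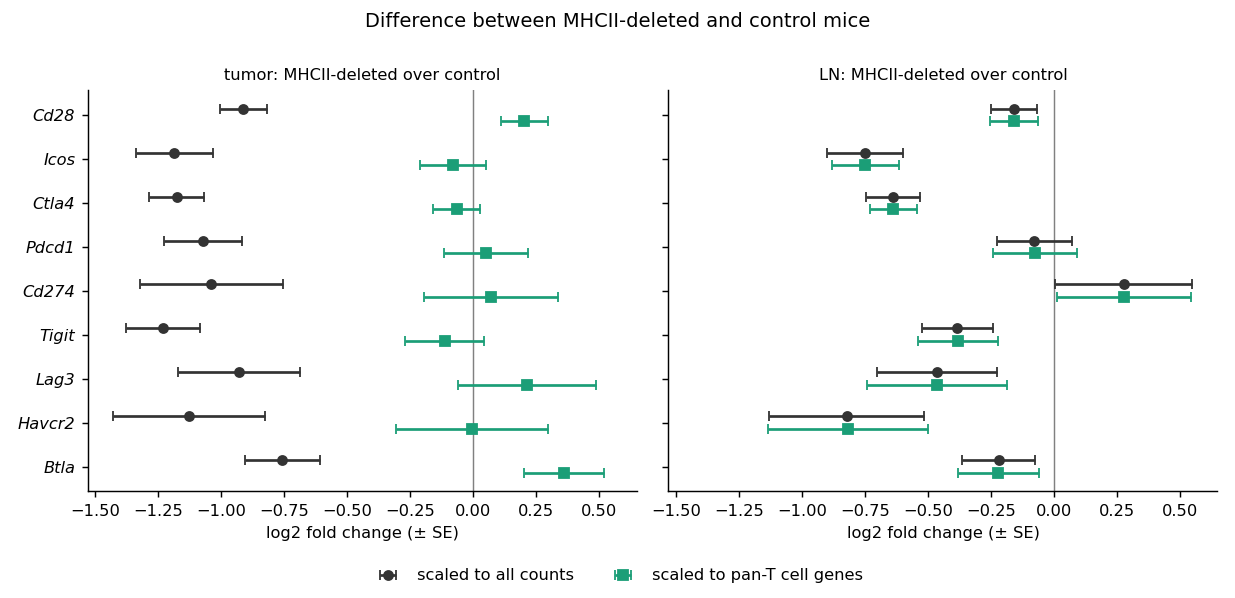
Log2 fold change of MHCII-deleted over control mice for each gene in tumor (left) and LN (right), with bars of 1 SE. Circles are scaled to all counts and squares to pan-T cell genes; in tumor the circles lie between -1.23 and -0.76 and the squares between -0.11 and 0.36, while in LN both scales give nearly the same value.

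**Figure D5:**
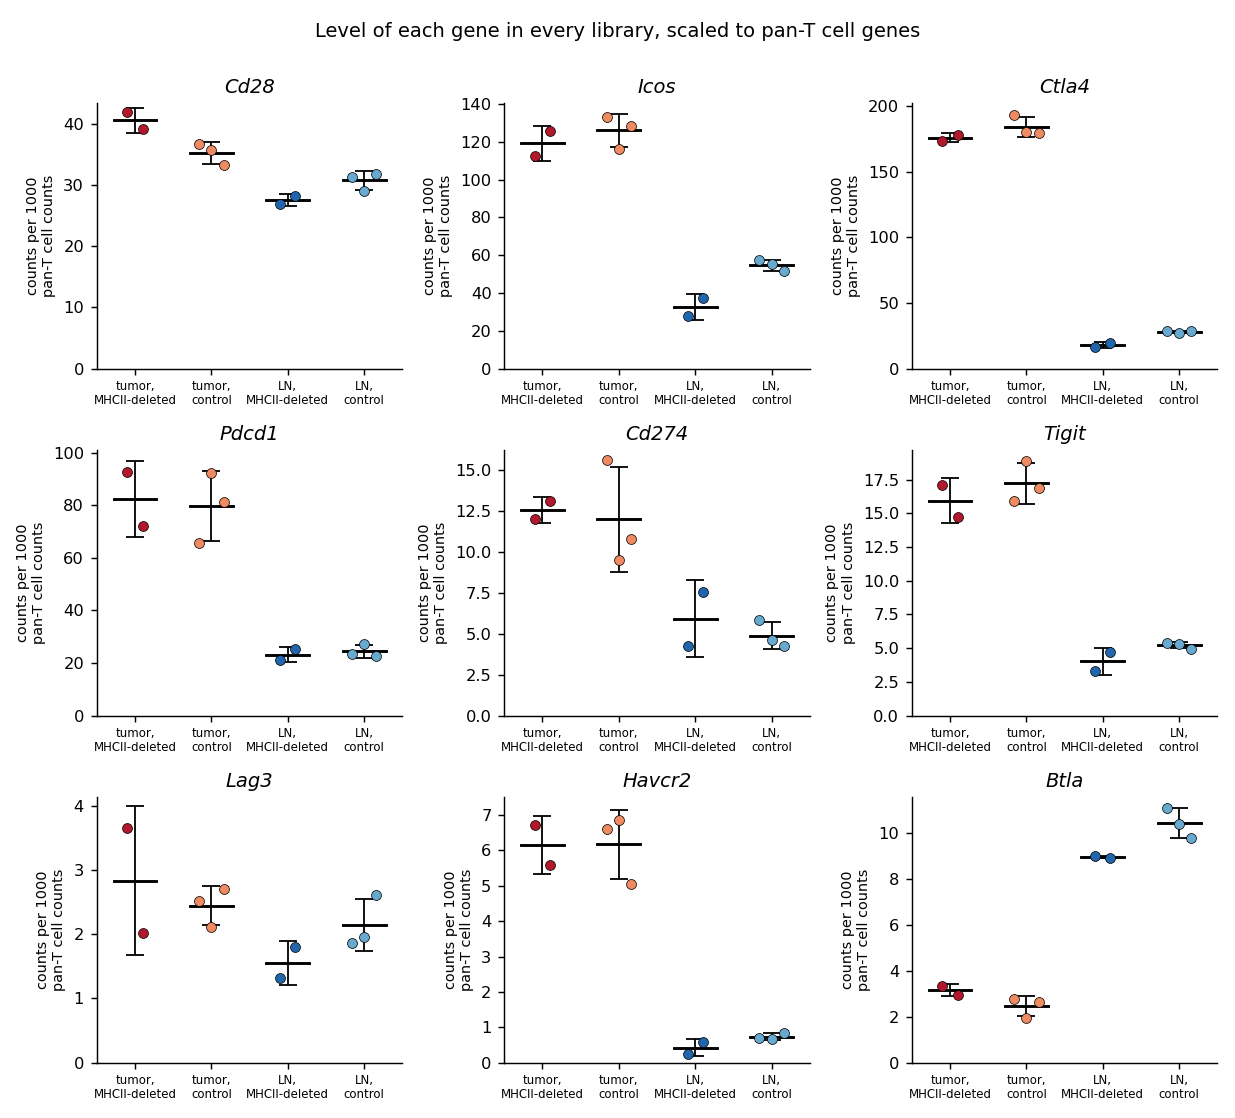
Counts of each gene per 1000 counts of the 24 pan-T cell genes in every library. Points are libraries, thick lines are means and bars are SD; tumor libraries of both genotypes lie together for most genes, and Ctla4 and Icos of LN are lower in MHCII-deleted than in control mice.

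Some of the tumor calls on the scale of all counts depended on 1 library or on the fit. With limma-voom, 6 of the 9 genes were called lower and Lag3, Btla and Cd274 were not (limma adjusted p = 0.0723, 0.0648 and 0.0938). The fit with the GC index as covariate called 7, and Lag3 and Havcr2 were not (edgeR adjusted p = 0.104 and 0.115). Havcr2 was lost without tumor library 1 or 2 of MHCII-deleted mice (edgeR adjusted p = 0.0763 and 0.075) or library 1 or 2 of control mice (edgeR adjusted p = 0.0504 and 0.0549). Cd274 was lost without library 1 of MHCII-deleted mice (edgeR adjusted p = 0.124) or library 1 of control mice (edgeR adjusted p = 0.0539), and Lag3 without library 2 of MHCII-deleted mice (edgeR adjusted p = 0.112).

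The deletion effect in tumor minus that in LN was tested as an interaction. Per all counts, Ctla4, Cd28, Pdcd1 and Tigit fell more with the deletion in tumor than in LN. These were 4 of the 9 genes, where 6.57% of all genes were called lower and 4.14% higher. Of the 23 pan-T cell genes tested, 22 were called lower too. The median log2 difference of those 23 was -1.10, against -0.54 for the 9 genes. The log2 differences were -0.75 ± 0.13 (SE; edgeR adjusted p = 0.00863) for Cd28, -0.995 ± 0.21 (SE; edgeR adjusted p = 0.0181) for Pdcd1, -0.85 ± 0.20 (SE; edgeR adjusted p = 0.0261) for Tigit and -0.54 ± 0.15 (SE; edgeR adjusted p = 0.0467) for Ctla4. Scaled to pan-T cell genes, 3 genes were called and all 3 pointed the other way, where 46.0% of all genes were called higher and 0.144% lower: 0.57 for Ctla4, 0.67 for Icos and 0.36 for Cd28 (edgeR adjusted p = 0.00575, 0.0141 and 0.049). The median of all genes was 1.11 with pan-T cell scaling, against -0.01 per all counts, and 99.7% of the calls were higher, against 38.6%. Which way Ctla4 and Cd28 differed between the tissues in their response to the deletion thus depended on the scale, and Pdcd1 and Tigit were not called with pan-T cell scaling (0.13 and 0.27). Per all counts, Ctla4 was lost without any library in turn other than tumor library 2 of MHCII-deleted mice (-0.65 to -0.41, edgeR adjusted p = 0.0533 to 0.192). Pdcd1 was lost without LN library 2 of MHCII-deleted mice (-0.87, edgeR adjusted p = 0.0791), and Tigit without that library (-0.59, edgeR adjusted p = 0.104), tumor library 1 of the same mice (-0.84, edgeR adjusted p = 0.0732), or LN library 1 or 3 of control mice (-0.86 and -0.81, edgeR adjusted p = 0.0573 and 0.0647). Cd28 passed without each library. When the GC index entered as covariate, however, none of the 4 passed, at -0.69 for Cd28, -1.10 for Pdcd1, -0.89 for Tigit and -0.41 for Ctla4 (edgeR adjusted p = 0.0529, 0.0578, 0.0935 and 0.219). RLE size factors also ended the call of Ctla4 (edgeR adjusted p = 0.0724), and limma-voom that of Tigit (limma adjusted p = 0.0574).

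Across the 4 groups, the genes fell into different orders. By CPM, Ctla4, Tigit, Havcr2 and Pdcd1 were highest in tumor of control mice, then in tumor of MHCII-deleted mice, then in LN of control mice and lowest in LN of MHCII-deleted mice, and only the LN groups of Pdcd1 overlapped. Icos was highest in tumor of control mice and lowest in LN of MHCII-deleted mice, while tumor of MHCII-deleted mice and LN of control mice overlapped in between. Btla was highest in LN of control mice, then LN of MHCII-deleted mice, and lowest in tumor of MHCII-deleted mice, with no overlap. Cd28 was lowest in tumor of MHCII-deleted mice, and the control groups of both tissues overlapped at the top. Lag3 overlapped between tumor and LN in each genotype, and Cd274 between LN of MHCII-deleted mice, tumor of MHCII-deleted mice and LN of control mice. Per 1000 pan-T cell counts, Ctla4, Tigit and Havcr2 kept their order, though the tumor groups of Tigit and Havcr2 overlapped. Cd28 was then highest in tumor of MHCII-deleted mice and Btla lowest in tumor of control mice, both with no overlap. Pdcd1, Lag3 and Cd274 also had their highest mean in tumor of MHCII-deleted mice, but overlapped with tumor of control mice.

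The genes whose pattern over the 10 libraries was most like that of each receptor were named by the root mean square difference of centred log2 CPM, among 8708 protein coding genes with a mean of at least 10 CPM. It measures likeness in these libraries and includes the differences in melanoma RNA that all genes of a library share. For Ctla4 they were Rnf125 (0.182), Sgk1 (0.188) and Bspry (0.202). For Icos they were Tnfrsf4 (0.156), Glrx (0.210) and Tnfrsf18 (0.214), of which Tnfrsf4 (OX40) and Tnfrsf18 (GITR) are co-stimulatory receptors of the TNF receptor family. For Tigit they were Tnfrsf18 (0.131), Sdcbp2 (0.141) and Gna15 (0.147), and for Pdcd1 Rab11fip1 (0.105), Chd7 (0.136) and Isy1 (0.148). Havcr2 was most like the chemokine receptor gene Ccr2 (0.127), followed by Plek (0.227) and Id2 (0.295), a gene of a transcriptional inhibitor. Btla was most like Dennd2d (0.159). Cd274 was most like Dnase1l1 (0.202), Ube2l6 (0.217) and Irgm2 (0.230), of which Irgm2 is known as an interferon-induced GTPase gene. Cd28 was most like Clic1 (0.0586), Pnp (0.0655) and Cyb561a3 (0.0685), and Lag3 like Ccdc28a (0.196), Mthfsl (0.199) and S100a10 (0.199). The distances of Cd28 were the smallest.

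The genes around the receptors were followed in 5 lists, with 97 of 100 genes tested. Between tumor and LN of control mice, 31 of them rose and 22 fell, where 22.8% of all genes were called higher and 16.1% lower. Of the 14 other co-stimulatory and co-inhibitory receptors, 4 rose and 6 fell. Those that rose were Cd200r1, an inhibitory receptor for CD200, with 1.16 ± 0.31 (log2 fold change ± SE; edgeR adjusted p = 0.0154), Slamf1, a self-binding receptor of lymphocytes, with 0.92 ± 0.09 (log2 fold change ± SE; edgeR adjusted p = 3.63e-05), and, chosen after their values were seen, the activating receptor gene Cd226 with 0.71 (edgeR adjusted p = 0.0185) and Cd101 with 0.83 (edgeR adjusted p = 0.00785). Cd160, another receptor for HVEM, and Cd200 fell, with -1.74 ± 0.27 (log2 fold change ± SE; edgeR adjusted p = 0.000846) and -1.65 ± 0.19 (log2 fold change ± SE; edgeR adjusted p = 0.000139). Cd226, which shares the ligand CD155 with Tigit, thus rose as Tigit did. Cd96, also a receptor for CD155 and named after its value was seen, was called lower, so receptors of this ligand did not move together. Cd160 and Btla, which share HVEM, both fell.

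Of 13 ligand genes tested, 6 rose and 1 fell in tumor of control mice, where 22.8% of all genes were called higher and 16.1% lower. Lgals3, which encodes galectin-3, a ligand proposed for LAG3, stood at 228 ± 19.4 CPM in tumor and 53.2 ± 13.8 CPM in LN (SD, n = 3 each), with 2.10 ± 0.32 (log2 fold change ± SE; edgeR adjusted p = 0.000804). Cd80, a ligand of CD28 and CTLA4, rose with 1.39 ± 0.37 (log2 fold change ± SE; edgeR adjusted p = 0.0146), at 16.2 ± 7.11 CPM in tumor and 6.15 ± 0.739 CPM in LN. Tnfsf14, which encodes LIGHT, a ligand of HVEM, fell with -2.08 ± 0.29 (log2 fold change ± SE; edgeR adjusted p = 0.000374). Tnfsf14 and Btla both belong to the HVEM network and both were lower in tumor. The other ligand genes that rose were Pdcd1lg2, Nectin2, Nectin3 and Cd276, outside the rule for named genes. Melanoma markers summed to between 4963 and 9672 CPM in these tumor libraries, against 16.5 to 26.9 CPM in LN, and their part in the ligand results was not tested.

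Of 26 genes of signaling downstream, 4 rose and 8 fell, where 22.8% of all genes were called higher and 16.1% lower. Pik3ip1, an inhibitor of phosphoinositide 3-kinase, fell with -2.53 ± 0.20 (log2 fold change ± SE; edgeR adjusted p = 1.17e-05), and Ptpn6, the phosphatase SHP-1 that inhibitory receptors recruit, with -1.22 ± 0.13 (log2 fold change ± SE; edgeR adjusted p = 7.98e-05). Grb2, an adaptor that binds the tail of CD28, rose with 1.29 ± 0.36 (log2 fold change ± SE; edgeR adjusted p = 0.0183) and the adaptor Dok2 with 0.46 ± 0.08 (log2 fold change ± SE; edgeR adjusted p = 0.00122). Grb2 varied widely between the tumor libraries, at 111 ± 52.8 CPM in tumor and 45.6 ± 6.56 CPM in LN (SD, n = 3 each), and turned to -0.07 with the GC index as covariate. Inpp5d, the phosphatase SHIP-1, and Gab2 also rose, named after their values were seen. Of 20 genes of trafficking, stability and turnover, 6 rose and 4 fell, not far from the same shares of all genes (22.8% and 16.1%). Zc3h12a, which encodes the RNase Regnase-1, rose most, to 213 ± 36.1 CPM in tumor, against 20.6 ± 1.398 CPM in LN (SD, n = 3 each), with 3.37 ± 0.17 (log2 fold change ± SE; edgeR adjusted p = 6.20e-07). Icos mRNA is among its known targets. Trat1, which encodes TRIM, a transmembrane adaptor that helps CTLA4 to the cell surface, fell with -1.14 ± 0.10 (log2 fold change ± SE; edgeR adjusted p = 2.04e-05), and Fbxo38, which targets PD-1 for degradation, with -0.53 ± 0.09 (log2 fold change ± SE; edgeR adjusted p = 0.0012). Ap1m1 and Def6, named likewise, fell too, and Stub1 rose with 0.44 ± 0.15 (log2 fold change ± SE; edgeR adjusted p = 0.0415), which did not pass with pan-T cell scaling (edgeR adjusted p = 0.0514).

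Of 24 transcription factors known to act on these genes, 11 rose and 3 fell between tumor and LN of control mice. Among all genes 22.8% were called higher and 16.1% lower. Nr4a2, an orphan receptor induced by antigen receptor signaling, stood at 278 ± 23.7 CPM in tumor and 7.84 ± 1.18 CPM in LN (SD, n = 3 each), with 5.15 ± 0.31 (log2 fold change ± SE; edgeR adjusted p = 2.24e-06). Fos, an AP-1 subunit, rose with 3.40 ± 0.23 (log2 fold change ± SE; edgeR adjusted p = 4.36e-06). Tcf7, a factor of resting T cells, fell with -2.53 ± 0.26 (log2 fold change ± SE; edgeR adjusted p = 6.46e-05), and Tox2 with -0.99 ± 0.32 (log2 fold change ± SE; edgeR adjusted p = 0.0331), which did not pass with pan-T cell scaling (edgeR adjusted p = 0.0587). The other gene that fell was Tox, named after its value was seen.

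Some of these pathway calls rested on 1 library. Without LN library 1 of control mice, Cd200r1, Cd80 and Grb2 were lost (edgeR adjusted p = 0.0506, 0.0565 and 0.0553). Without LN library 3, Cd226 and Grb2 were lost (edgeR adjusted p = 0.0699 and 0.0695). Without tumor library 2 of control mice, Cd226 and Cd80 were lost (edgeR adjusted p = 0.0667 and 0.0623), and without tumor library 1, Grb2 was lost (edgeR adjusted p = 0.0534). Tox2 was lost without any LN library of control mice or tumor library 1 or 3 (edgeR adjusted p = 0.0676 to 0.108). Stub1 was lost without LN library 1 or 2 or tumor library 2 or 3 of control mice, or either LN library of MHCII-deleted mice (edgeR adjusted p = 0.0621 to 0.13), and Ap1m1 without LN or tumor library 1 of control mice (edgeR adjusted p = 0.0602 and 0.0504). Nr4a2, Fos, Zc3h12a, Pik3ip1, Tnfsf14, Tcf7, Cd160, Cd200, Slamf1, Ptpn6, Trat1, Dok2, Fbxo38 and Lgals3 passed without each library. Of these, Cd160, Dok2 and Fbxo38 did not pass when the GC index was a covariate (edgeR adjusted p = 0.108, 0.0556 and 0.0595). Nor did Cd226, Cd80 and Cd101 (edgeR adjusted p = 0.115, 0.168 and 0.715), Gab2, Inpp5d and Tox (edgeR adjusted p = 0.0896, 0.0909 and 0.109), or Ap1m1, Def6 and Tox2 (edgeR adjusted p = 0.0837, 0.0985 and 0.771). The log2 fold change of Cd101 was then 0.15 and that of Tox2 -0.25. Ap1m1 was lost with pan-T cell scaling too (edgeR adjusted p = 0.0901).

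Between tumor and LN of MHCII-deleted mice, 17 of the 97 genes rose and 50 fell, where 24.3% of all genes were called higher and 20.1% lower. On the pan-T cell scale 52 rose and 15 fell, where 64.3% of all genes were called higher and 2.33% lower. Zc3h12a rose on both scales, with 2.05 ± 0.20 (log2 fold change ± SE; edgeR adjusted p = 2.94e-05) and 3.25 with pan-T cell scaling, as did Nr4a2 with 3.62 ± 0.35 (log2 fold change ± SE; edgeR adjusted p = 3.90e-05) and Fos with 2.59 ± 0.28 (log2 fold change ± SE; edgeR adjusted p = 6.06e-05). Tnfsf14 and Pik3ip1 fell on both scales, with -3.48 ± 0.37 (log2 fold change ± SE; edgeR adjusted p = 6.13e-05) and -2.39 ± 0.25 (log2 fold change ± SE; edgeR adjusted p = 4.88e-05), as did Tcf7 with -2.59 ± 0.31 (log2 fold change ± SE; edgeR adjusted p = 0.000151), Tox2 with -2.51 ± 0.41 (log2 fold change ± SE; edgeR adjusted p = 0.00091), Trat1 with -1.82 ± 0.13 (log2 fold change ± SE; edgeR adjusted p = 4.98e-06) and Cd200 with -2.19 ± 0.24 (log2 fold change ± SE; edgeR adjusted p = 7.24e-05). Nectin2, a ligand of TIGIT, rose with 4.62 ± 0.53 (log2 fold change ± SE; edgeR adjusted p = 8.71e-05), and so did Cd276, from few counts in LN, at 36.4 ± 10.8 CPM in tumor and 0.128 ± 0.181 CPM in LN (SD, n = 2 each). The fitted log2 fold change of Cd276 was 8.05 ± 0.92 (SE; edgeR adjusted p = 8.88e-05), but its size was not settled by so few counts, with 13.18 without LN library 1 of these mice and 7.13 without LN library 2. The log2 fold changes of Gab2, Akt1 and Stub1 were 4.91, 3.60 and 0.89. Akt1 differed widely between the tumor libraries, with a mean of 326 ± 345 CPM in tumor and 26.9 ± 1.72 CPM in LN (SD, n = 2 each). Its log2 fold change was 4.40 without tumor library 1 of these mice and 1.61 without tumor library 2, and it did not pass in a fit to the groups compared alone (edgeR adjusted p = 0.0526). Lgals9, the galectin-9 gene, Def6, Fyn and Cd160 had -0.76, -1.16, -2.09 and -1.97 on the log2 scale and were called lower, but with pan-T cell scaling Lgals9 was called higher (0.44) and the others were not called (0.04, -0.93 and -0.76).

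In LN, 2 of the 97 genes rose in MHCII-deleted mice and 0 fell, where 1.07% of all genes were called higher and 0.0359% lower. Grb2 stood at 207 ± 6.11 CPM in MHCII-deleted (SD, n = 2) and 45.6 ± 6.56 CPM in control mice (SD, n = 3), with 2.18 ± 0.39 (log2 fold change ± SE; edgeR adjusted p = 0.046). Jun, the AP-1 partner of Fos, stood at 312 ± 0.549 CPM in MHCII-deleted and 208 ± 25.0 CPM in control mice, with 0.58 ± 0.11 (log2 fold change ± SE; edgeR adjusted p = 0.0497). No regulator or trafficking gene was called lower beside Ctla4 and Icos, but only 5 of the 13920 genes tested were, so little can be read from this. At an unadjusted p under 0.05, 1298 of all genes passed in this comparison, against 154 called, and DESeq2 called 674. With pan-T cell scaling 5 of the 97 rose, where 2.66% of all genes did. Both calls were lost without any of the 5 LN libraries (edgeR adjusted p = 0.148 to 0.252 for Grb2 and 0.14 to 0.269 for Jun) or without tumor library 2 or 3 of control mice (edgeR adjusted p = 0.0512 and 0.0781 for Grb2, 0.0561 and 0.0836 for Jun), and Grb2 was 0.49 and Jun 0.28 with the GC index as covariate (edgeR adjusted p = 0.965 and 0.958). RLE size factors ended both calls as well (edgeR adjusted p = 0.0568 for Grb2 and 0.0601 for Jun), and so did, for Grb2, omission of the low count filter (edgeR adjusted p = 0.0746).

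In tumor, 7 of the 97 genes were higher in MHCII-deleted mice and 54 lower per all counts, where 15.0% of all genes were called higher and 13.7% lower. On the pan-T cell scale 50 were higher and 2 lower, where 67.2% of all genes were called higher and 0.330% lower. The 2 that were lower on both scales were Zc3h12a and Maf. Zc3h12a stood at 65.1 ± 0.340 CPM in MHCII-deleted (SD, n = 2) and 213 ± 36.1 CPM in control mice (SD, n = 3), with -1.71 ± 0.18 (log2 fold change ± SE; edgeR adjusted p = 0.000277) and -0.59 with pan-T cell scaling (edgeR adjusted p = 0.0207). Maf, a transcription factor of effector Tregs, stood at 51.8 ± 4.59 CPM in MHCII-deleted and 149 ± 11.2 CPM in control mice, with -1.53 ± 0.15 (log2 fold change ± SE; edgeR adjusted p = 0.000216) and -0.41 with pan-T cell scaling (edgeR adjusted p = 0.0386).

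Of the 14 other receptors, 9 fell in tumor of MHCII-deleted mice per all counts and none rose, among them Cd200r1 with -1.61 ± 0.36 (log2 fold change ± SE; edgeR adjusted p = 0.0102) and Vsir, which encodes VISTA, with -1.18 ± 0.12 (log2 fold change ± SE; edgeR adjusted p = 0.000212). Of the ligands 6 fell, among them Pdcd1lg2 (PD-L2) with -1.38 ± 0.18 (log2 fold change ± SE; edgeR adjusted p = 0.000699) and Cd80 with -1.38 ± 0.43 (log2 fold change ± SE; edgeR adjusted p = 0.0368), and Nectin2 and Lgals3 rose with 2.05 ± 0.41 (log2 fold change ± SE; edgeR adjusted p = 0.00519) and 1.32 ± 0.34 (log2 fold change ± SE; edgeR adjusted p = 0.0177). Of the signaling genes 16 fell, on the log2 scale Dok2 with -1.32 and Grap2 with -1.14 most, and Akt1, Gab2 and Ppp2ca rose with 2.71, 2.39 and 2.17. Ppp2ca, named after its value was seen, turned to -0.25 without tumor library 2 of MHCII-deleted mice (edgeR adjusted p = 0.697), and without that library Akt1 was 0.73 (edgeR adjusted p = 0.0676). Of the trafficking genes 8 fell, with Lrba, which protects CTLA4 from degradation, at -1.12 ± 0.27 (log2 fold change ± SE; edgeR adjusted p = 0.0129), and Stub1 rose with 0.56 ± 0.17 (log2 fold change ± SE; edgeR adjusted p = 0.0313). Of the transcription factors 15 fell, with Tbx21 at -1.42 ± 0.33 (log2 fold change ± SE; edgeR adjusted p = 0.012), and Eomes, named after its value was seen, rose with 2.90 (edgeR adjusted p = 0.0226). With pan-T cell scaling none of the 9 genes and none of Cd200r1, Vsir, Pdcd1lg2, Cd80, Dok2, Grap2, Lrba and Tbx21 was called, while Nectin2, Lgals3, Akt1, Gab2 and Stub1 were called higher. By list on that scale, 3 of the other receptors, 7 ligands and 15 signaling genes were called higher and 0 lower. Of the trafficking genes 16 were higher and 1 lower, and of the transcription factors 9 and 1. Among all genes, 67.2% were called higher and 0.330% lower there, against 15.0% and 13.7% per all counts. The pan-T cell genes and the pathway lists share some genes, among them Lck, Prkcq and Trat1.

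Without tumor library 1 of MHCII-deleted mice, Lgals3, Stub1, Lrba, Cd80 and Eomes were lost (edgeR adjusted p = 0.195, 0.23, 0.0885, 0.155 and 0.0862), and the value of Lgals3 was 0.50. Without tumor library 2 of these mice, Cd200r1, Cd80 and Eomes were lost (edgeR adjusted p = 0.0598, 0.0879 and 0.0573). Without tumor library 1 of control mice, Stub1 and Eomes were lost (edgeR adjusted p = 0.0808 and 0.0518), without tumor library 2, Stub1 and Cd80 (edgeR adjusted p = 0.0552 and 0.113), and without tumor library 3, Lgals3 (edgeR adjusted p = 0.0517). Cd80 was also lost without any LN library of control mice (edgeR adjusted p = 0.0513 to 0.052). Ppp2ca was lost without any library other than tumor library 1 of either genotype (edgeR adjusted p = 0.0658 to 0.697). Zc3h12a, Maf, Vsir, Pdcd1lg2, Dok2, Grap2, Tbx21, Gab2 and Nectin2 passed without each library. Under the fit with the GC index, Akt1, Cd200r1, Cd80, Eomes and Ppp2ca did not pass (edgeR adjusted p = 0.17, 0.0642, 0.153, 0.0598 and 0.876). In a fit to the tumor groups alone, Akt1, Cd80, Eomes, Lgals3, Ppp2ca, Stub1 and Tbx21 did not (edgeR adjusted p = 0.0538, 0.0588, 0.0809, 0.0614, 0.148, 0.124 and 0.0513), and with limma-voom Cd80, Lrba, Ppp2ca and Stub1 did not (limma adjusted p = 0.116, 0.0686, 0.181 and 0.0722). Ppp2ca was also lost with no filter on low counts (edgeR adjusted p = 0.117).

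In the interaction, 3 of the 97 genes were called higher and 37 lower per all counts, where 4.14% and 6.57% of all genes were. On the pan-T cell scale 31 were called higher and 0 lower, where 46.0% and 0.144% of all genes were. Per all counts the log2 differences were -1.07 for Ly9, -1.01 for Vsir, -1.32 for Pdcd1lg2, -1.15 for Cd86, -2.23 for Grb2, -1.25 for Carmil2, -1.36 for Lrba, -1.32 for Zc3h12a, -1.53 for Nr4a2 and -1.504 for Nfatc1. None of these 10 was called with pan-T cell scaling. Nectin2 and Lgals3 had higher effects in tumor on both scales, with 2.58 and 1.79 per all counts (edgeR adjusted p = 0.0259 and 0.0467), in the libraries that held the most melanoma RNA, whose part in this was not tested. Without 1 library in turn, Lgals3 was lost for 9 of the 10 libraries (edgeR adjusted p up to 0.174), Lrba for 8, Nr4a2 for 8, Cd86 for 7, Grb2 for 6 and Nectin2 for 4, while Ly9, Vsir, Pdcd1lg2, Carmil2, Zc3h12a and Nfatc1 passed without each library. Under the GC index fit, Pdcd1lg2 and Carmil2 did not pass (edgeR adjusted p = 0.0753 and 0.0622), nor did Lgals3, Lrba, Nr4a2, Cd86, Grb2 and Nectin2 (edgeR adjusted p = 0.0782 to 0.232).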

How the data were processed

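Bulk RNA-seq of sorted Tregs was analysed in 10 libraries. The authors deposited 1 table of whole-number counts per gene. Per the labels' protocols, libraries were made from 1 ng of RNA with the SMARTer Ultra Low and Nextera XT kits and read as single 50-base reads. Per the submitters' processing notes, the tools were CASAVA 1.8.2, STAR 2.4 and featureCounts 1.4.6 with build GRCm38, and the annotation release and strand setting are not given in the sources used here. Low input kits of this kind can lose GC-rich transcripts, and Lag3 holds a window of 100 bases over 75% GC. All 21556 identifiers matched GENCODE M21, which gave symbols, positions and exon lengths.

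Counts were tested with edgeR 4.0.16 (R 4.3.3, limma 3.58.1). Genes were kept by filterByExpr with a minimum count of 10, libraries were scaled by TMM, and 1 quasi-likelihood model with robust spread was fitted to the 4 group means over all 10 libraries. The 5 contrasts set MHCII-deleted against control mice within each tissue, tumor against LN within each genotype, and the deletion effect of tumor against that of LN. Benjamini-Hochberg adjustment ran over all 13920 genes, with calls at an adjusted p under 0.05. The script was tested on simulated counts. The Ctla4 to Cd28 ratio was tested by exact permutation (scipy 1.17.1), which with 2 or 3 libraries a group cannot pass that threshold within a genotype or tissue. Total counts of 28539329 to 35736175 set the counting precision, and every replicate pair differed by more than sampling noise (chi-square per degree of freedom of 28.5 to 148). This check uses counting noise alone and cannot tell separate samples from separate preparations of 1 sample. All libraries were counted separately.

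Alternatives were RLE size factors, DESeq2 1.42.0, limma-voom with quality weights, omission of the low count filter, spread estimated without robustness, a fit to the groups compared alone, the replicate block, scaling to 24 pan-T cell genes, an index of GC-rich transcripts as covariate, and leaving out each library. Named were all 9 genes and, of each pathway list and comparison, the 2 called genes per direction with the largest change and a mean of at least 10 CPM. A gene outside this rule was chosen after its values were seen. Log2 CPM used a prior count of 2. Not every gene named as alike is reported here. The 9 genes and all lists were chosen with earlier results of these data known. Figures were drawn with matplotlib 3.10.9.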

Additional observations from a re-analysis of the deposited data

Results flagged for a closer look

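Per all counts, the deletion effect on Ctla4, Cd28, Pdcd1 and Tigit differed between tumor and LN by a test of the difference itself, but not under every setting tried. On that scale 22 of the 23 pan-T cell genes tested were called lower too. The deletion effect in tumor minus that in LN was -0.54 on the log2 scale for Ctla4, -0.75 for Cd28, -0.995 for Pdcd1 and -0.85 for Tigit (edgeR adjusted p = 0.0467, 0.00863, 0.0181 and 0.0261). With pan-T cell scaling these values were 0.57, 0.36, 0.13 and 0.27, on the other side of 0. When the GC index was a covariate, none of the 4 passed (edgeR adjusted p = 0.219, 0.0529, 0.0578 and 0.0935). Without 1 library in turn, Ctla4 was lost for 9 of the 10 libraries, Tigit for 4, Pdcd1 for 1 and Cd28 for 0.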

How the results depend on the processing

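Of the values of the 9 genes under the alternatives, 753 kept their direction and side of the threshold, 62 lost a call, 4 gained one and 27 changed direction; the cause was not tested. In tumor, 3999 genes were called for the deletion, 2519 in a fit to the groups compared alone and 9404 with pan-T cell scaling, where 0 of the 9 genes were lower; 6 were lower with limma-voom and 7 with the GC index. In LN, 154 were called, 674 with DESeq2, 0 with the GC index, 23 with RLE size factors, 787 with limma-voom, 806 in a fit to the groups compared alone, 377 with pan-T cell scaling and 0 with the replicate block. The 2 genes lower there became 0 with the GC index, RLE or the replicate block and 1 with a non-robust spread. Between the tissues, 5409 were called in control mice and 2528 with the GC index, and 6175 in MHCII-deleted mice and 9273 with pan-T cell scaling, where 8 of the 9 genes were higher and 1 lower. The interaction called 1491 genes, 2563 with DESeq2, 357 with the GC index and 6421 with pan-T cell scaling; of the 9 genes, 0 were lower with either of these last settings, and 3 higher with pan-T cell scaling. Without 1 library, the counts were 2745 to 3695 (7 to 9 of the 9 genes lower) for the deletion in tumor, 0 to 611 (0 to 2) in LN, 4157 to 5671 (6 higher and 1 lower) between tissues in control mice, 4293 to 6326 (3 to 5 higher and 2 lower) in MHCII-deleted mice and 527 to 2281 (1 to 5 lower) for the interaction.

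With pan-T cell scaling, direction changed in the tumor deletion effect (0.20 for Cd28, 0.0505 for Pdcd1, 0.21 for Lag3, 0.36 for Btla and 0.0696 for Cd274), in the tissue effect of MHCII-deleted mice (0.56 for Cd28, 0.87 for Lag3, 1.09 for Cd274, 0.0429 for Def6 and 0.44 for Lgals9) and in the interaction (0.57 for Ctla4, 0.67 for Icos, 0.36 for Cd28, 0.13 for Pdcd1, 0.68 for Lag3, 0.27 for Tigit, 0.81 for Havcr2, 0.58 for Btla, 0.0414 for Ly9 and 0.0958 for Vsir). With the GC index it changed for the tumor deletion effect of Ppp2ca (-0.11), the LN effects of Pdcd1, Lag3 and Cd274 (0.11, 0.41 and -0.20) and the tissue effect of Grb2 in control mice (-0.0674). The tissue effect of Cd274 in MHCII-deleted mice was 0.00504 with DESeq2, 0.00578 with RLE, 0.35 without their LN library 2 and 0.0681 without their tumor library 1. In LN, Pdcd1 was 0.0378 without library 2 of control mice and 0.0368 without library 1 of MHCII-deleted mice, and without library 2 of the same mice Cd274 was -0.18 and the interaction of Havcr2 0.43. Ppp2ca was -0.25 without tumor library 2 of MHCII-deleted mice. Over the libraries left out, these values ranged from -0.25 to 3.02 for Ppp2ca in tumor, -0.20 to 0.0378 for Pdcd1 and -0.18 to 0.62 for Cd274 in LN, -0.45 to 0.35 for the tissue effect of Cd274 and -0.80 to 0.43 for the interaction of Havcr2.

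The tissue difference of the Ctla4 to Cd28 ratio (2.60) was 2.51 to 2.66 without 1 library, 2.73 within MHCII-deleted and 2.51 within control mice (exact permutation p = 0.333 and 0.1), and with the replicate block 2.60 (exact permutation p = 0.0625), each p being the smallest possible. Tumor and LN libraries of 1 genotype and the same number had correlations of deviation of 0.0203 to 0.0462, and those of unequal number -0.0352 to -0.00343. Deviations from the group mean sum to 0 within a group, so values for unequal numbers are partly fixed by those for the same number. Among these correlations, each control library was highest with its own number, a hint from the data and not from the design. The samples were taken as unpaired because every value for the same number was under 0.1, a limit that was not itself tested. Across genotypes, libraries of the same number had -0.148 to -0.0069. With the replicate block the interaction called 3 of the 9 genes, without Ctla4 (edgeR adjusted p = 0.0711). Depth limits Havcr2 in LN, where its counts were the lowest of the 9 genes. With 2 libraries, the MHCII-deleted groups limit every contrast they enter.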
